A study of Mus musculus with 6 samples.

Results

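The immediate early genes are represented here by Fos, Fosb, Jun, Junb, Jund, Egr1, Egr2, Atf3, Ier2 and Ier3. Every probe set that the platform annotation assigns to one of these 10 genes, and to no other gene, was taken and kept apart, which gave 15 of the 12422 probe sets on the array. Of these, 12 lay above the dim limit, a normalized signal of 5.53, on at least 3 of the 6 arrays and were tested, against 7768 of all probe sets. The RNA came from medullary thymic epithelial cells, sorted as negative for the blood cell marker CD45, positive for the epithelial antibody G8.8, intermediate for CDR1 and high for B7.1. One group was wild type and the other is labelled as lacking Aire, a transcriptional regulator of the thymic medulla, and is called Aire-deficient here as its labels have it. Both groups were B6/129 F2 mice, 3 to 5 weeks old and of both sexes, and each of the 3 arrays in a group held the pooled thymi of 5 animals. All thymi were digested with collagenase and dispase, fractionated by density and stained before sorting, and the RNA was amplified in a pair of rounds with T7 polymerase.

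Immediate early genes are switched on within minutes of a stimulus, without new protein synthesis, when kinase cascades activate transcription factors already present in the cell. Fos and Fosb pair with the Jun proteins to form the transcription factor AP-1, Egr1 and Egr2 are zinc finger factors, and Atf3 is a stress-induced relative of the same leucine zipper class. Ier2 and Ier3 are short-lived early response products. Enzymatic digestion and sorting are known to raise several of these transcripts in freshly isolated cells, so they are often read as a sign of handling. The comparison of genotypes and of same-numbered arrays below describes these transcripts in that sense, and no label explains the numbers 1 to 3.

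Signals are in arbitrary units after quantile normalization and cannot be compared between probe sets. The deposited arrays had 2% trimmed means of 19.6 to 26.9, and the number of arrays limits the precision. The Aire probe set gave 59.9, 96.4 and 138 in wild type and 202, 297 and 211 on the arrays labelled Aire-deficient, higher on each of these (log2 difference 1.33, limma adjusted p = 0.0918). Its position relative to the disrupted part of the gene is unknown here, so it does not check the labels, and every direction below rests on them. Of the markers of the sorted cells, Epcam, an epithelial adhesion molecule, lay at 130 to 251 in wild type and at 79.8 to 102 in Aire-deficient cells. Cd80, which encodes B7.1, reached 13.1 at most on one probe set and 16.1 on another. Krt5 and Krt14, keratins of many medullary cells, lay under the dim limit on all 6 arrays. Ptprc, which encodes CD45, reached 10.3 at most. For beta-actin, the 3' probe set exceeded the 5' one 95.8-fold on wild-type array 2 and 4.38-fold to 13.8-fold on the other 5 arrays, a ratio that rises when transcripts are shortened.

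Fos, the AP-1 subunit most often used to mark recent stimulation, was lowest on array 2 in both genotypes. Its signals on arrays 1, 2 and 3 were 903, 400 and 578 in wild type, against 541, 231 and 383 in Aire-deficient cells; values below follow the same order. Array 1 was the highest of each group. The Aire-deficient array lay below the wild-type array of the same number in all 3 pairs, but the groups overlapped. The log2 difference between Aire-deficient and wild-type arrays was -0.71 ± 0.37 (SE, n = 3 per group), with a limma adjusted p of 0.436. A second Fos probe set was above the dim limit on 1 array and was not tested.

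Fosb, the closest relative of Fos among the members, had the widest spread of the 12 between arrays of one genotype. It gave 255, 70.4 and 640 in wild type, against 133, 47.4 and 323 in Aire-deficient cells. Array 3 was the highest and array 2 the lowest in both genotypes: array 3 exceeded array 2 by 9.09-fold in wild type and by 6.81-fold in Aire-deficient cells, and array 1 exceeded array 2 by 3.62-fold and 2.81-fold. The genotype difference of -0.83 ± 0.79 did not exceed that spread (limma adjusted p = 0.69), although each of the 3 same-numbered pairs was lower in the Aire-deficient cells.

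Upstream sequences are shown for Fosb and Jun, which were low on both arrays numbered 2, and for Junb and Jund, which were not; in each pair 1 window holds a searched motif and 1 holds none. Promoters of 8 of the 10 genes were found in the RefSeq table of build GRCm38.p6, with none for Egr1 and Ier2. Each line is the 250 bases before a transcription start, 5′ to 3′, and capitals mark motif matches on either strand. The motifs were TGACGTCA, the cAMP response element, and its core TGACG, which lies inside every full element. Also searched were TGANTCA, bound by AP-1, the TATA box as TATAAA, and the CArG box, to which serum response factor binds. The windows are Fosb at chr7:19310046-19310295 on the minus strand, Jun at chr4:95052223-95052472 on the minus strand, Junb at chr8:84978749-84978998 on the minus strand and Jund at chr8:70697489-70697738 on the plus strand.
Fosb: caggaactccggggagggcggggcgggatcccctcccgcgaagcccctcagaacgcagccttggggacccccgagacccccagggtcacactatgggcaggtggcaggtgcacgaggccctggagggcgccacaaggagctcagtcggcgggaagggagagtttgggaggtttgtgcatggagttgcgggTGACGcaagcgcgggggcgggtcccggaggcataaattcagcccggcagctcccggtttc
Jun: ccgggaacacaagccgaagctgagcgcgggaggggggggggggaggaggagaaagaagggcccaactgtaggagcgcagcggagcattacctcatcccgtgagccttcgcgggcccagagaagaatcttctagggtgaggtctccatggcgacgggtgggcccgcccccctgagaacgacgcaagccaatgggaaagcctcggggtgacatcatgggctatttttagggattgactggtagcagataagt
Junb: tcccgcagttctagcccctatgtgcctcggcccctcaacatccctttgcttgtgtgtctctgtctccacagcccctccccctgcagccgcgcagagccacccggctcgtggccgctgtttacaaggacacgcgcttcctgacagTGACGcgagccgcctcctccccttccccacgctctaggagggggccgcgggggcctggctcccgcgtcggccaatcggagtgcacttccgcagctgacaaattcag
Jund: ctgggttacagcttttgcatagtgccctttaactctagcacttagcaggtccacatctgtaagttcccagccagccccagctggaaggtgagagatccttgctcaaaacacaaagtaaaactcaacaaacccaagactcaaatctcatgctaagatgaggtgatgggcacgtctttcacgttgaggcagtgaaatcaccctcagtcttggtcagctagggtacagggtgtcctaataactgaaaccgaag

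Windows with and without a motif occurred both among members low on the arrays numbered 2 and among those that were not. With Junb and Jund alone on the latter side, the comparison cannot decide whether a motif goes with the pattern. Counted from the transcription start, TGACG lay at -60 in the Fosb window and at -106 in the Junb window, whereas the Jun and Jund windows held 0 motifs. Among the windows not printed, that of Fos held TGACG at -129 and -66 and TATAAA at -33, and that of Atf3 held the core on the opposite strand at -7. The Ier3 window held 0 motifs. Egr2 has 5 starts in the table: a CArG box lay in 4 of these windows, in 3 of them together with the core, and the remaining window held 0 motifs. Among 32851 promoter windows of the same length, 17.8% held the core TGACG, 1.47% a CArG box, 12.4% TATAAA, 1.55% TGACGTCA and 6.75% TGANTCA. Neither TGACGTCA nor TGANTCA was present in any of the 12 windows of the 8 genes. The core and TATAAA were added to the search after the sequences had been seen. These are matches of letters and show no binding.

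Among the partners of Fos in AP-1, Jun was lowest on both arrays numbered 2, whereas Junb and Jund were not. Jun gave 120, 34.5 and 171 in wild type, against 69, 34.8 and 109 in Aire-deficient cells. Both arrays numbered 2 lay below all 4 others, and the genotype difference was -0.48 ± 0.58 (adjusted p = 0.765). Junb gave 22.5, 35.9 and 31.1 against 17, 16.1 and 27.3 on one probe set (suffix i) and 38.2, 61.8 and 45.7 against 37.1, 33 and 46.5 on the other (suffix r). On both, wild-type array 2 was the highest of its group and Aire-deficient array 2 the lowest. The genotype differences were -0.58 ± 0.35 (adjusted p = 0.494) and -0.31 ± 0.32 (adjusted p = 0.722). Jund, which is known for steady expression in unstimulated cells, gave 437, 499 and 407 in wild type and 437, 303 and 514 in Aire-deficient cells, with overlapping groups (-0.13 ± 0.27, adjusted p = 0.874).

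The zinc finger genes were also lowest on array 2 in both genotypes. Egr1, a factor induced by growth signals, gave 419, 227 and 617 in wild type and 242, 161 and 658 in Aire-deficient cells. Array 3 was the highest and array 2 the lowest in both genotypes. The genotype difference was -0.40 ± 0.50 (adjusted p = 0.776). Egr2 gave 80.9, 36.5 and 71.2 in wild type and 85.4, 37.3 and 80.3 in Aire-deficient cells. Same-numbered arrays lay close together for Egr2, with log2 differences of 0.08, 0.03 and 0.17, whereas arrays 1 and 3 exceeded array 2 by 1.95-fold to 2.29-fold within either genotype. A second Egr1 probe set was under the dim limit on all 6 arrays.

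Among the members only Atf3 had groups that did not overlap, on 1 of its tested probe sets. Groups were also apart, with Aire-deficient lower, for 10.1% of all tested probe sets. The probe set with suffix f gave 194, 153 and 183 in wild type and 134, 75.9 and 125 in Aire-deficient cells. The difference was -0.70 ± 0.31, with a 95% interval of -1.38 to -0.02 and a limma adjusted p of 0.333 (unadjusted p = 0.0441). That suffix marks a design that can bind related transcripts. The other tested probe set, with suffix r, gave 52.5, 19.5 and 65.7 against 41.3, 20.1 and 37.1 and its groups overlapped (-0.37 ± 0.48, adjusted p = 0.778). A further probe set lay at the floor of 1.8 on all 6 arrays.

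Of the short-lived early response products, Ier2 was lower and Ier3 higher on average in Aire-deficient cells, neither past the threshold. Ier2 gave 186, 96.8 and 138 in wild type and 126, 51.2 and 97.4 in Aire-deficient cells, lower in each same-numbered pair (-0.66 ± 0.39, adjusted p = 0.489). Ier3, a regulator of survival under stress, was dim, at 13, 5.45 and 17.5 in wild type and 19.8, 9.63 and 11.6 in Aire-deficient cells. It was higher in the Aire-deficient array of pairs 1 and 2 and lower in pair 3 (0.28 ± 0.48, adjusted p = 0.843).

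**Figure D1:**
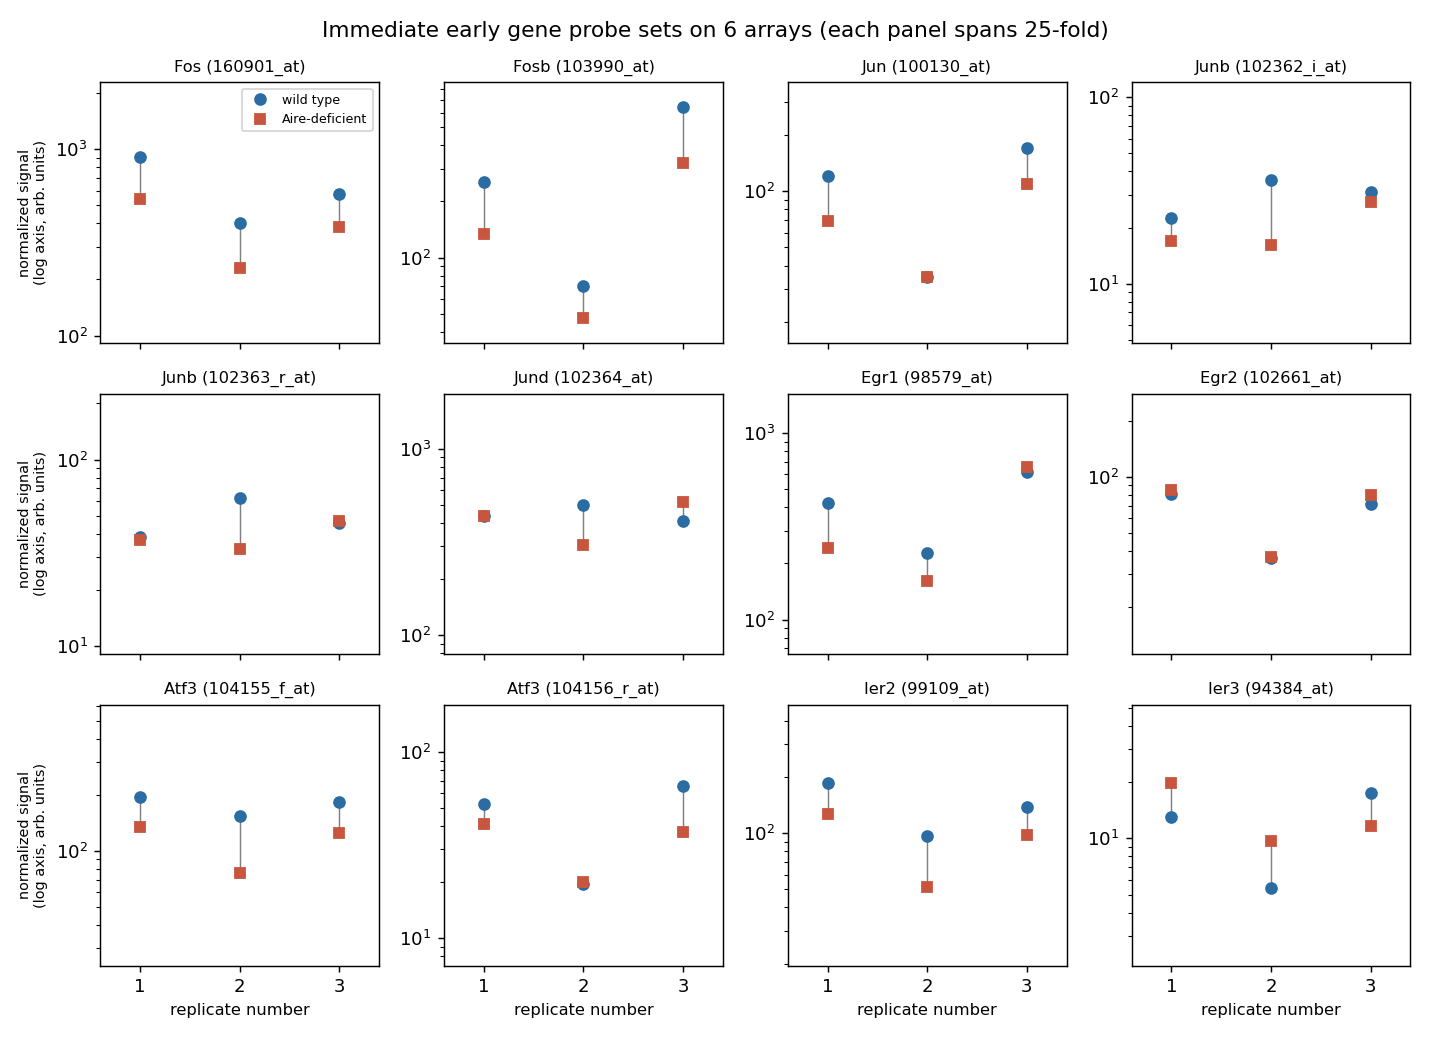
Normalized signal of the 12 tested probe sets (log axis, arbitrary units) on each array, by replicate number, with wild type as circles, Aire-deficient as squares and a line joining the arrays of one number. Fosb falls to 70.4 and 47.4 on the arrays numbered 2, whereas Jund stays between 303 and 514 on all 6 arrays.

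No immediate early gene differed between the genotypes at an adjusted p under 0.05. In the limma fit 0 of 12 member probe sets passed, where 1.73% of all tested probe sets did (1.38% lower and 0.348% higher in Aire-deficient cells). At an unadjusted p under 0.05 there was 1 member, Atf3, against 14.3% of all probe sets. With the replicate number as a block again 0 of 12 members passed, while the share of all probe sets rose to 5.3%. At an unadjusted p under 0.05 in the blocked fit there were 4 members, against 1589 of 7768 probe sets. In that fit Fosb had an adjusted p of 0.0696 and Fos of 0.0849. In the main fit, without the block, the 95% intervals of the differences ran from -2.57 to 0.91 for Fosb and from -0.72 to 0.47 for Jund. A fall by 1 on the log2 scale thus lies within that interval for Fosb and outside it for Jund. Because the RNA is from bulk sorted cells, fewer cells with a transcript and less of it per cell cannot be told apart.

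By direction, 10 of the 12 member probe sets were lower in Aire-deficient cells and 2 were higher, with a median log2 difference of -0.44, against 46.9% lower and a median of 0.05 over all tested probe sets. On the values as deposited 8 of 12 were lower, with Jund and Egr1 turned to higher, and the medians were -0.23 for the members and 0.17 for all probe sets. In 1 of 12 members (Atf3) the groups did not overlap with Aire-deficient lower, against 10.1% of all probe sets, and in 0 with Aire-deficient higher, against 10.4%. In all 3 same-numbered pairs 5 of 12 members were lower (Fos, Fosb, Junb, Atf3 and Ier2, each on 1 probe set), against 20.2% of all probe sets. Egr2 was the 1 member higher in all 3 pairs, against 22.2%. Leaving out Aire-deficient array 2 moved the members' median to -0.09, and leaving out wild-type array 2 moved it to -0.79. The members share arrays, so their directions are not independent. Summed granulocyte markers were lower on the same Aire-deficient arrays, at 158 to 221 in wild type and 31.1 to 42.6 in Aire-deficient cells. Of the 5 genes, 4 were above the dim limit on at least 3 arrays, and Camp was the brightest. Camp, an antimicrobial peptide gene, gave 60.9, 168 and 85.3 against 20.9, 18.8 and 25 (limma adjusted p = 0.0236). Ltf (20.5 to 34.9 in wild type, 1.8 to 3.72 in Aire-deficient cells) also passed, with a limma adjusted p of 0.0057. So did Ly6g (12.8 to 50.9, against the floor of 1.8 on all 3 arrays), with 0.00586. For Mpo, the tested probe set gave 8.03, 11.35 and 16.2 against 2.25, 1.8 and 8.6 (adjusted p = 0.223). The other Mpo probe set and Elane were under the dim limit on all 6 arrays and overlapped between the groups. Ptprc, on its tested probe set, gave 5.15, 7.22 and 5.33 against 7.93, 7.83 and 10.3 (adjusted p = 0.586). Which cells the granulocyte transcripts came from is unknown here. Their part in the direction of the members was not tested.

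**Figure D2:**
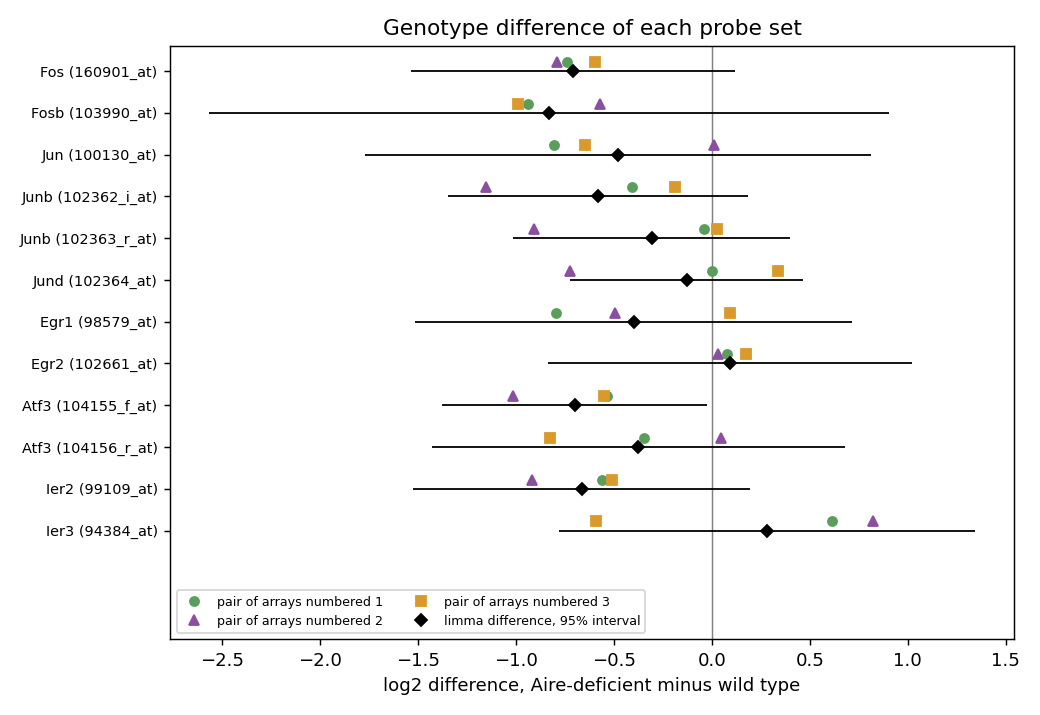
Log2 difference between Aire-deficient and wild type for each tested probe set: diamonds are the limma estimate with its 95% interval over 3 arrays per group, and coloured symbols are the 3 same-numbered pairs. The interval includes 0 for each probe set but Atf3 (suffix f), at -1.38 to -0.02.

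Several immediate early genes were low together on the arrays numbered 2. Both arrays numbered 2 lay below all 4 others for 7 of 12 member probe sets (Fosb, Jun, Egr1, Egr2, Ier2, Ier3 and the Atf3 probe set with suffix r), against 6.91% of all tested probe sets. On the values as deposited this held for 9 of 12 members, with Fos and the other Atf3 probe set added, against 2.73%. Array 2 was the lowest of its own genotype in both genotypes for 9 of 12 members, against 13.9%. For Ier2 and Egr1 the margin was small: the highest array numbered 2 lay 0.01 and 0.09 log2 units below the lowest other array. For Jun, Egr2, Fosb and Atf3 it was 0.99, 0.93, 0.92 and 0.88.

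The replicate number was then tested as a term beside genotype in limma, with 2 degrees of freedom and adjustment over all 7768 probe sets. This test was chosen after the values had been seen. Fosb had the smallest limma p of all tested probe sets (moderated F test, adjusted p = 0.0126) and was 1 of 8 that passed, so 1 of 12 members against 0.103% of all. Jun ranked 22 and Egr1 ranked 36 of 7768, both with an adjusted p of 0.0756. Fos ranked 137 (adjusted p = 0.155), Atf3 (suffix r) 228 (0.17), Egr2 253 (0.176) and Ier2 382 (0.211). At an unadjusted p under 0.05 there were 7 of 12 members, against 15.9% of all probe sets. Junb (adjusted p = 0.632 and 0.841) and Jund (0.876) had no detectable dependence on the number; whether they differ from Fosb in this was not tested. The Fosb call was lost without a variance trend (adjusted p = 0.328), without the filter on dim probe sets (0.531) and without wild-type array 2 (0.0732). It held in the other alternatives run on all 6 arrays, with adjusted p of 0.00171 to 0.026. It also held without any other single array (1.62e-09 to 0.0257). Those fits have 1 residual degree of freedom and passed 97 to 310 probe sets, so their small values add little. The other 7 probe sets that passed were those of Spock2, Mpeg1, Ccl9, Epha2, Cherp, Ctsl and Ogdh, named here after their values were seen. Mpeg1 (26.5, 8.5 and 44.1 against 29.5, 6.31 and 85.3) was also lowest on array 2 in both genotypes. So was Ccl9 (275, 30.7 and 119 against 64.9, 15.1 and 44.7). Spock2, Epha2, Cherp and Ogdh were lowest on array 1 in both genotypes, and Ctsl on array 3.

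**Figure D3:**
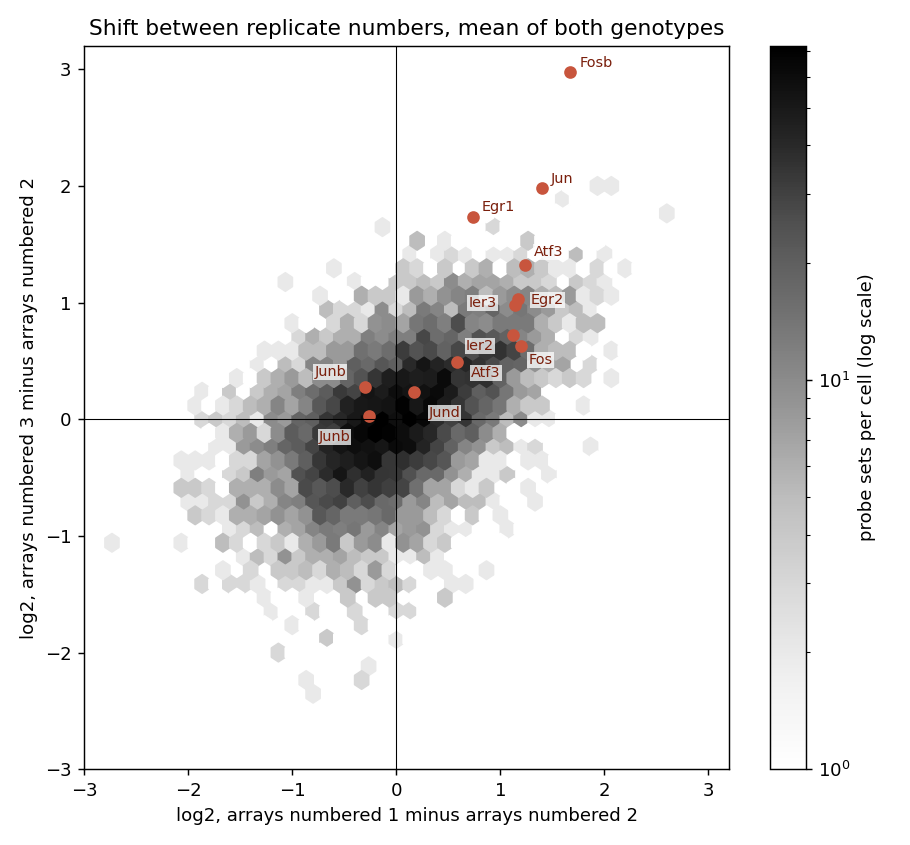
Shift of log2 signal from the arrays numbered 2 to those numbered 1 (horizontal) and 3 (vertical), each the mean of both genotypes, for all 7768 tested probe sets (grey cells) and the 12 members (points). Fosb lies at 1.67 and 2.98 and Jun at 1.40 and 1.98, while the Junb and Jund points lie between -0.30 and 0.28 on both axes.

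Signs of RNA quality and of other cells were read on the same arrays. The beta-actin ratio was 95.8 on wild-type array 2 and 5.75 on Aire-deficient array 2. The same ratio for Gapdh was 87.9 and 10.9 on these arrays. On wild-type array 2, 9 of 12 members lay below their group mean, against 48.4% of all tested probe sets. On Aire-deficient array 2 all 12 members did, against 47.5%. Summed fibroblast markers were 327 and 349 on the arrays numbered 2 and 154 to 249 on the others. Of 13 fibroblast probe sets, 4 were under the dim limit on all 6 arrays and 1, that of Dcn, a matrix proteoglycan, was higher on both arrays numbered 2 than on the other 4 (231 and 240 against 38.2 to 136). Summed markers were also higher on these arrays for B cells (131 and 134 against 67.5 to 128), endothelium (40.8 and 45 against 27.6 to 37.5) and erythroid cells (33 and 35.5 against 18.9 to 30). By probe set, however, 0 of 6 for B cells, 1 of 6 for endothelium and 0 of 2 for erythroid cells were above all other arrays on both. Sums on the arrays numbered 2 lay within the range of the others for cortical epithelium (201 and 227 against 140 to 434). For thymocytes 188 lay within and 104 below that range (117 to 215). The sums lay on either side of it for myeloid and dendritic cells (209 and 260 against 215 to 244) and granulocytes (31.1 and 221 against 35.6 to 162). The cortical sum fell from array 1 to array 3 in both genotypes (434, 227 and 142 against 371, 201 and 140). Most of this fall was in Ctsl (340, 153 and 85.7 against 266, 116 and 54), which was among the probe sets that passed for replicate number. The Cxcl12 probe sets, at 16.9 or less, were also lowest on array 3 in both genotypes. Ly75 gave 49.7, 31.1 and 35.4 against 78.1, 61.8 and 61.7. Foxn1 gave 9.75, 14.9 and 10.1 against 4.35, 7.55 and 16.3. Summed medullary markers were 2832 to 2936 in wild type and 3235 to 3480 in Aire-deficient cells. Most of that sum was H2-Aa, a class II gene that other antigen-presenting cells also express, at 1859 to 2045 and at 2331 on each Aire-deficient array. The part of these in the immediate early gene pattern was not tested.

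Several immediate early genes varied more between pools of one genotype than did other transcripts of similar signal. The pooled within-genotype SD of log2 signal was 1.5 for Fosb, 1.04 for Jun and 0.90 for Egr1, where the median of the tested probe sets in the same quintile of mean signal was 0.39. These SDs exceeded those of 99.8%, 98.3% and 96.1% of the probe sets in that quintile. Fos (0.60), Ier2 (0.58) and Egr2 (0.64) exceeded 80.3%, 77.7% and 83.5%. Atf3 with suffix r (0.77) and Ier3 (0.73) exceeded 91.9% and 76.7% of the probe sets in their own quintiles. Jund (0.30), Atf3 with suffix f (0.34) and Junb (0.38 and 0.31) lay below the median of their quintile.

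**Figure D4:**
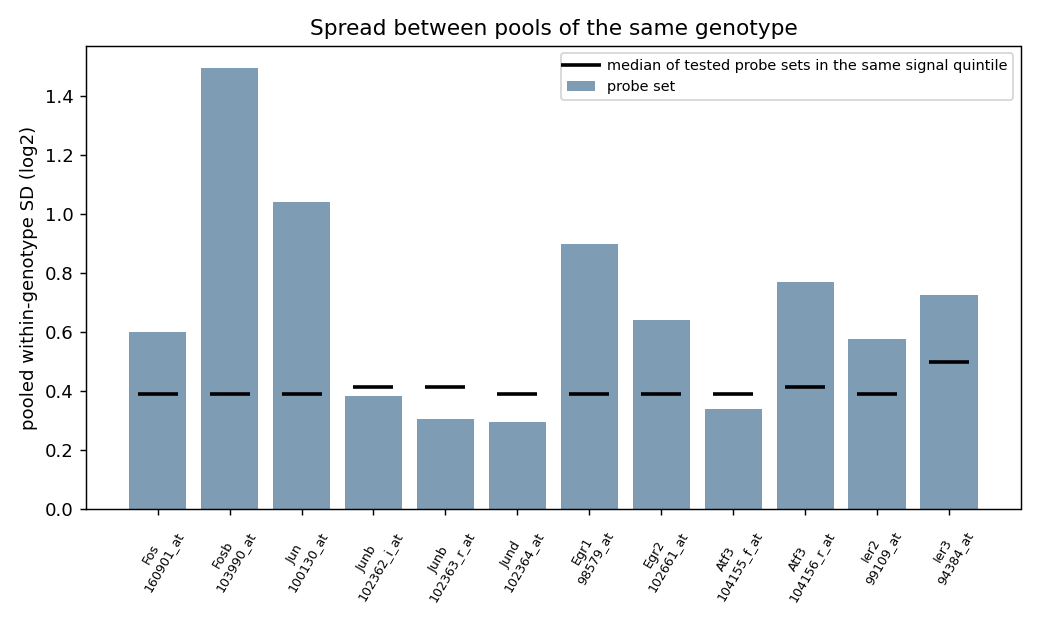
Pooled SD of log2 signal between the 3 arrays of a genotype (bars, from 0) for each tested probe set, with the median of tested probe sets of similar mean signal as a black mark. Fosb reaches 1.5 and Jun 1.04, whereas Jund lies at 0.30, under its mark of 0.39.

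The profile of Fos over the 6 arrays was set against those of all other tested probe sets by the root mean square difference of log2 signals centred on each probe set's mean. Ier2 was the nearest of all 7767, at 0.10. The nearest genes outside the members were Dusp1, a phosphatase that is itself an early response gene, at 0.14, Ctsk, a cysteine protease, at 0.14 and Ptch1, a Hedgehog receptor, at 0.15. Dusp1 gave 180, 105 and 149 in wild type and 120, 52.5 and 86.7 in Aire-deficient cells. The median of this measure over all probe sets was 0.78, and Fosb itself lay at 1.02 from Fos. With 6 arrays and 7767 candidates such a ranking is a description only.

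Other early response genes, taken from a list of 53 genes present on the array, had 54 tested probe sets for 46 genes. In the genotype comparison 1 fell and 0 rose, with a median log2 difference of -0.32 and 36 of 54 below 0, against 46.9% of all tested probe sets. The probe set that fell was of Cxcl1, a neutrophil-attracting chemokine, at 598, 640 and 605 in wild type and 309, 285 and 270 in Aire-deficient cells (-1.09 ± 0.23, with an adjusted p of 0.0416, and of 0.0157 in the blocked fit). A second Cxcl1 probe set gave 523, 235 and 511 against 293, 176 and 178 (adjusted p = 0.273). Camp, Ltf and Ly6g, given above, were lower on the same arrays, and their part in this value was not tested. The Cxcl1 call was lost when any 1 array was left out and on the values as deposited. Id2, an inhibitor of helix-loop-helix factors, gave 95.4, 84 and 70.8 against 45.2, 34.9 and 43.2 (-1.02 ± 0.29, adjusted p = 0.13) and passed with the block (0.0481). Cxcl2 (-0.81 ± 0.27, adjusted p = 0.191), Id3 (-1.01 ± 0.38, 0.251) and the orphan receptor gene Nr4a1 (-0.83 ± 0.31, 0.26) did not pass. Array 2 was the lowest in both genotypes for 13 of the 54, against 13.9% of all probe sets, and both arrays numbered 2 lay below all others for 6, against 6.91%. For replicate number 0 of the 54 passed in limma.

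Heat shock and stress genes had 20 tested probe sets, of which 0 changed with genotype in limma (2 at an unadjusted p under 0.05, against 14.3% of all probe sets) and 7 were below 0, against 46.9%, with a median of 0.20. The smallest p belonged to Trib3, a stress-induced pseudokinase, at 6.52, 9.35 and 7.62 in wild type and 15.9, 17.2 and 18.6 in Aire-deficient cells (1.15 ± 0.33, adjusted p = 0.134). Hspa5 and Ddit3 had differences of 0.44 ± 0.25 and 0.58 ± 0.34 (adjusted p = 0.468 and 0.493). One Asns probe set was at the floor on wild-type arrays 1 and 3 (1.8, 4.15 and 1.8 against 6.87, 7.07 and 7.53, adjusted p = 0.267), so its difference depends on the floor. The brighter Asns probe set gave 49, 16.1 and 31.6 against 40.3, 32.2 and 24.4 (0.11 ± 0.42, adjusted p = 0.934). Array 2 was the lowest in both genotypes for 6 of the 20, against 13.9% of all probe sets. Kinases and partner factors upstream of or beside AP-1 had 15 tested probe sets, with 0 changed in limma (3 at an unadjusted p under 0.05, against 14.3%) and a median of 0.32. For Map3k1, a kinase of the Jun pathway, the brightest probe set gave 72.7, 68.2 and 61.6 in wild type and 151, 162 and 124 in Aire-deficient cells. Its difference was 1.10 ± 0.28, with an adjusted p of 0.079, and of 0.0245 in the blocked fit. Another tested Map3k1 probe set overlapped (11.9, 13.1 and 1.87 against 19.2, 12.3 and 13.3, adjusted p = 0.485). A further one, under the dim limit on all 6 arrays, was not higher in Aire-deficient cells (3.62, 1.8 and 3.9 against the floor of 1.8 on each array). Batf3, a leucine zipper partner of Jun proteins, gave 13.9, 19.6 and 20.1 against 26.2, 52.8 and 39.4 (1.10 ± 0.35, with an adjusted p of 0.174, and of 0.0484 in the blocked fit). Batf and Atf2 had differences of 1.01 ± 0.35 and 0.82 ± 0.45 (adjusted p = 0.208 and 0.452). Array 2 was the lowest in both genotypes for 1 of these 15, against 13.9%.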

How the data were processed

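The deposited values are signal intensity per probe set on a linear scale for 6 arrays of a 1-colour oligonucleotide platform, with software, background correction and scaling not given in the sources used here; RNA amplification is per the labels. Control probe sets (66) were set aside. Of 12422 others the platform annotation gave 10833 a single gene, 396 several and 1193 none; 10817 matched GRCm38.p6 by Entrez identifier. Trimmed means differed by over 5%, so quantile normalization was applied. A floor was set at 1.8, the 20th percentile of all arrays together, and a probe set was tested if it exceeded 5.53 (the 40th percentile) on at least 3 arrays, on the log2 scale with limma 3.58.1 in R 4.3.3 (lmFit, eBayes with trend, 2-sided, Benjamini-Hochberg over 7768 probe sets, threshold 0.05). Each probe set was kept apart. Each pool came from different mice; the spread behind a p-value therefore includes sorting, amplification and hybridisation.

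Deviations from group means correlated at 0.372, 0.198 and 0.193 between same-numbered arrays and at -0.253 to 0.0676 between others. Same-numbered arrays were compared as pairs in description and blocked in an alternative fit. The main fit left the number out, and its SEs and adjusted p are given unless an alternative fit or the replicate number is named. The pairing rests on the data, since the labels do not explain the numbers. The members and lists were chosen with earlier results of these data known. Named genes were all members, for each other list the called genes and those with the smallest p, and the 3 genes nearest to Fos. The procedure was tested on simulated data. Alternatives covered scaling, floor, filter, variance model, 1 probe set per gene, the replicate block and leaving out arrays. Figures used matplotlib 3.10.9 in Python 3.11.15.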

Additional observations from a re-analysis of the deposited data

How the results depend on the processing

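No member probe set passed for genotype in limma under any alternative run, with 0 to 6 members at an unadjusted p under 0.05. The 6 came without wild-type array 2, where 919 of 7349 tested probe sets passed that limit. With the block 4 members did, against 1589 of 7768 probe sets. The counts of all probe sets called moved with the processing. Those higher in Aire-deficient cells were 71 on the values as deposited and 55 after median scaling, where 59% and 63.8% of calls were lower against 79.9% in the main setting. With no filter on dim probe sets 10 were lower and 6 higher, and with the replicate block 262 and 150; the block changed no call of a member. Without both arrays numbered 2, added after the data were seen, 0 lower and 0 higher passed in limma (581 in either direction at unadjusted p under 0.05). Leaving out 1 array gave 2 to 76 lower and 0 to 9 higher.

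Early-response probe sets called were 2 with the block and 0 on the values as deposited, after median scaling, without the filter, without a trend, without both arrays numbered 2, and in each fit without 1 array. For replicate number 2 probe sets passed with the floor at the 10th percentile, and 59, of which 3 members, with it at the 40th; 0 passed without the filter and 0 without a trend. Leaving out 1 array, with 1 residual degree of freedom, gave 0 to 310 probe sets and 0 to 4 members.

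Of 178 member differences recomputed, 166 kept their direction and 12 turned, none past the threshold. On the deposited values and after median scaling Jund turned to 0.21 in each, and Egr1 to 0.0455 and 0.0468. Leaving out 1 array gave a range of -0.288 to 0.0847 for Jund, -0.964 to 0.0404 for Egr1, -0.26 to 0.477 for Egr2 and -0.21 to 0.636 for Ier3. Jund and Egr1 turned without Aire-deficient array 2, Egr2 and Ier3 without wild-type array 2 (-0.26 and -0.21) or Aire-deficient array 1 (-0.12 and -0.02), and Egr2 also without Aire-deficient array 3 (-0.07). Without both arrays numbered 2 Jund was at 0.16. The causes were not tested. Signal over background limits the dim members, such as Ier3.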
